A study of Rattus norvegicus with 12 samples.

Results

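The voltage-gated calcium channels and their alpha2delta and beta subunits were followed in rat sciatic nerve, dorsal root ganglion (DRG) and dorsal cord after an intraneural injection of the myelin basic protein peptide MBP84-104. Members were the probes whose RefSeq accession belongs to 1 of 10 listed rat genes, and 14 probes of 9 genes were found among 18006 named probes of 15159 genes. Cacna1d, which encodes an L-type channel, was matched to no probe here. The rule has no threshold on signal.

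A voltage-gated calcium channel opens when the membrane is depolarized and lets calcium enter the cell. Its alpha1 subunit forms the pore and gives the channel its type, P/Q for Cacna1a, N for Cacna1b, L for Cacna1c and T for Cacna1h. The alpha2delta subunits (Cacna2d1 to Cacna2d3 among the members) and the cytoplasmic beta subunits (Cacnb1 and Cacnb4) bring the pore to the membrane. In sensory neurons N-type channels release transmitter at the central terminals in the dorsal horn, and alpha2delta-1 binds the gabapentinoid drugs used against neuropathic pain.

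RNA of 12 tissue samples, each pooled from 3 female rats, was hybridized to 1 Agilent array each, with 1 dye. Sprague-Dawley rats were taken at day 12 after the injection and athymic nude rats (Hsd:RH-Foxn1rnu), which lack mature T cells, at day 7, all of them adults of 8 weeks by the labels. The study's methods describe an earlier collection and heterozygous controls of the nude strain instead, so strain and day are given here as the labels have them and were not settled. In each rat type, 1 array held the left nerve that received the peptide and 1 the right nerve that received PBS, 1 the left and 1 the right DRG, and 1 the dorsal part of the lumbar cord and 1 that of the cord above it (thoracic below). Strain, T cell status and day differ together between the rat types, so they cannot be told apart, and no uninjected rat is among these samples. The tissues of a rat type came from the same animals by the study's methods, and a tissue level here holds both of its arrays, so the pool was taken as the replicate and a tissue has 2 of them.

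A level is the log2 of a probe's signal minus the median of that value over all probes of its array. A level of 0 is thus the typical probe, and a step of 1 is a doubling. A probe was detected where the extraction software marked it well above background. Over all spots, which count repeated probes more than once, the median signals of the arrays ran from 23.5 to 122. These are not the medians subtracted to give the levels. Between 59.5% and 76.9% of the spots were well above background, and the nude injected nerve was the dimmest array on both counts. As a check of the tissues, 8 of 9 general neuronal genes were higher in DRG than in nerve and 8 of 9 were higher in cord than in nerve, all 12 sensory neuron genes tested were higher in DRG than in cord, and all 9 oligodendrocyte genes were higher in cord than in DRG. Cord had more than nerve of 9 of 10 dorsal horn neuron genes and of all 7 astrocyte genes, and less of all 7 Schwann cell genes and all 8 macrophage genes. In bulk tissue, fewer cells of a type and less RNA per cell cannot be told apart.

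The RefSeq promoter table (build GRCr8) holds windows for 7 of the 10 members. The first 250 bases of the window, just before the annotated start, are shown for 3 members that were lower in nerve than in DRG and cord and for Cacna1c, which was lowest in cord. Capitals mark the letters GGGCGG or, from the other strand, CCGCCC. All 4 lie on the minus strand, Cacna1b at chr3:27944286-27944535, Cacna2d1 at chr4:20330148-20330397 (1 of 3 annotated starts), Cacna2d3 at chr16:4918900-4919149 and Cacna1c at chr4:154051749-154051998.
Cacna1b: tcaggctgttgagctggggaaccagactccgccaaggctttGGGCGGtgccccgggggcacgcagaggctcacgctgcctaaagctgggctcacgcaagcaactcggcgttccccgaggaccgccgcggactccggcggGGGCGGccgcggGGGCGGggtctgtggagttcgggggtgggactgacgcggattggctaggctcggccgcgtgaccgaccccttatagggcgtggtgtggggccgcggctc
Cacna2d1: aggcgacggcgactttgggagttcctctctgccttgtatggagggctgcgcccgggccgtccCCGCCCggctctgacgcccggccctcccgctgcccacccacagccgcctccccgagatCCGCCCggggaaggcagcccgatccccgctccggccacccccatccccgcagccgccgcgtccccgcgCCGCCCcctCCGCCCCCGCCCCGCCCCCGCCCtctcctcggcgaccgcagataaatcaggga
Cacna2d3: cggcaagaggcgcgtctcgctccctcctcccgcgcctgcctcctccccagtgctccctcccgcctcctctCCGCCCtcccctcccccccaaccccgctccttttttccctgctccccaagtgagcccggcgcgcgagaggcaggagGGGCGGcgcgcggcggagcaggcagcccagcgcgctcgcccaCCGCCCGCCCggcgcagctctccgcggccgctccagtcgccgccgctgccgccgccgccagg
Cacna1c: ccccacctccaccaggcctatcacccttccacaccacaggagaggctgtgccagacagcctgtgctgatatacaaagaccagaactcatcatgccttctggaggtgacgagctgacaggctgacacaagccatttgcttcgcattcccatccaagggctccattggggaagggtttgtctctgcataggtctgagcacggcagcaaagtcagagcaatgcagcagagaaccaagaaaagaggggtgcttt
GGGCGG was found 3 times in the Cacna1b window, 7 times in that of Cacna2d1, 4 times in that of Cacna2d3 and 0 times in that of Cacna1c. The other 2 annotated starts of Cacna2d1 held it 3 times each, and of the member windows not shown that of Cacna1a, which did not pass the test between tissues, held it once, that of Cacna2d2 2 times and that of Cacna1d 9 times. Of 33469 rat promoter windows of the same length, 30.5% hold it at least once. The GC content was 72.0% for Cacna1b, 77.2% for Cacna2d1, 78.8% for Cacna2d3 and 54.4% for Cacna1c, against a median of 51.2% over all windows. TGACGTCA, CACGTG and TATAAA, searched on both strands, were in none of the member windows and in 1.59%, 5.59% and 12.9% of all windows. The letters describe the windows and were not tested for binding.

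DRG had more RNA than nerve of 7 of the 9 members tested, and 0 were lower, while 14.0% of all 22131 probes tested were higher and 29.0% lower (limma, Benjamini-Hochberg adjusted p under 0.05). Against cord, 1 member was higher in DRG (27.5% of all probes) and 3 were lower (29.2%). Cord against nerve gave 4 higher members (27.0%) and 1 lower member (36.9%). The 7 include Cacna1b, Cacna2d2 and Cacna2d3, well above background on 4, 1 and 2 DRG arrays and on 0 nerve arrays. They entered the test through DRG and cord alone, so the filter largely set their direction against nerve. Among the cord against nerve calls the same holds for Cacna1b and Cacna2d3. The count for DRG against nerve was 4 of 9 with normexp background correction, with the injected-side and lumbar arrays alone and with the plain test that the methods name, unadjusted, and 0 with that test after Benjamini-Hochberg. In that order, 1749, 2537, 2461 and 295 of all 22131 probes were higher and 4591, 4369, 5042 and 363 lower. The median difference of the 9 members was 1.46 for DRG minus nerve, where the median of all 11657 named genes tested was -0.25, and it was 0.28 for DRG minus cord (all genes -0.13) and 0.51 for cord minus nerve (all genes -0.11). The split of all calls moved with the scaling. For DRG against nerve 32.5% of the called probes were higher, but 50.9% with the 75th percentile, 45.9% with quantile normalization or the authors' normalized values and 44.3% with cyclic loess. For DRG against cord the share was 48.4%, 59.6% with the 75th percentile and 30.5% with normexp background correction, and for cord against nerve it was 42.3% and 54.1% with normexp.

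**Figure D1:**
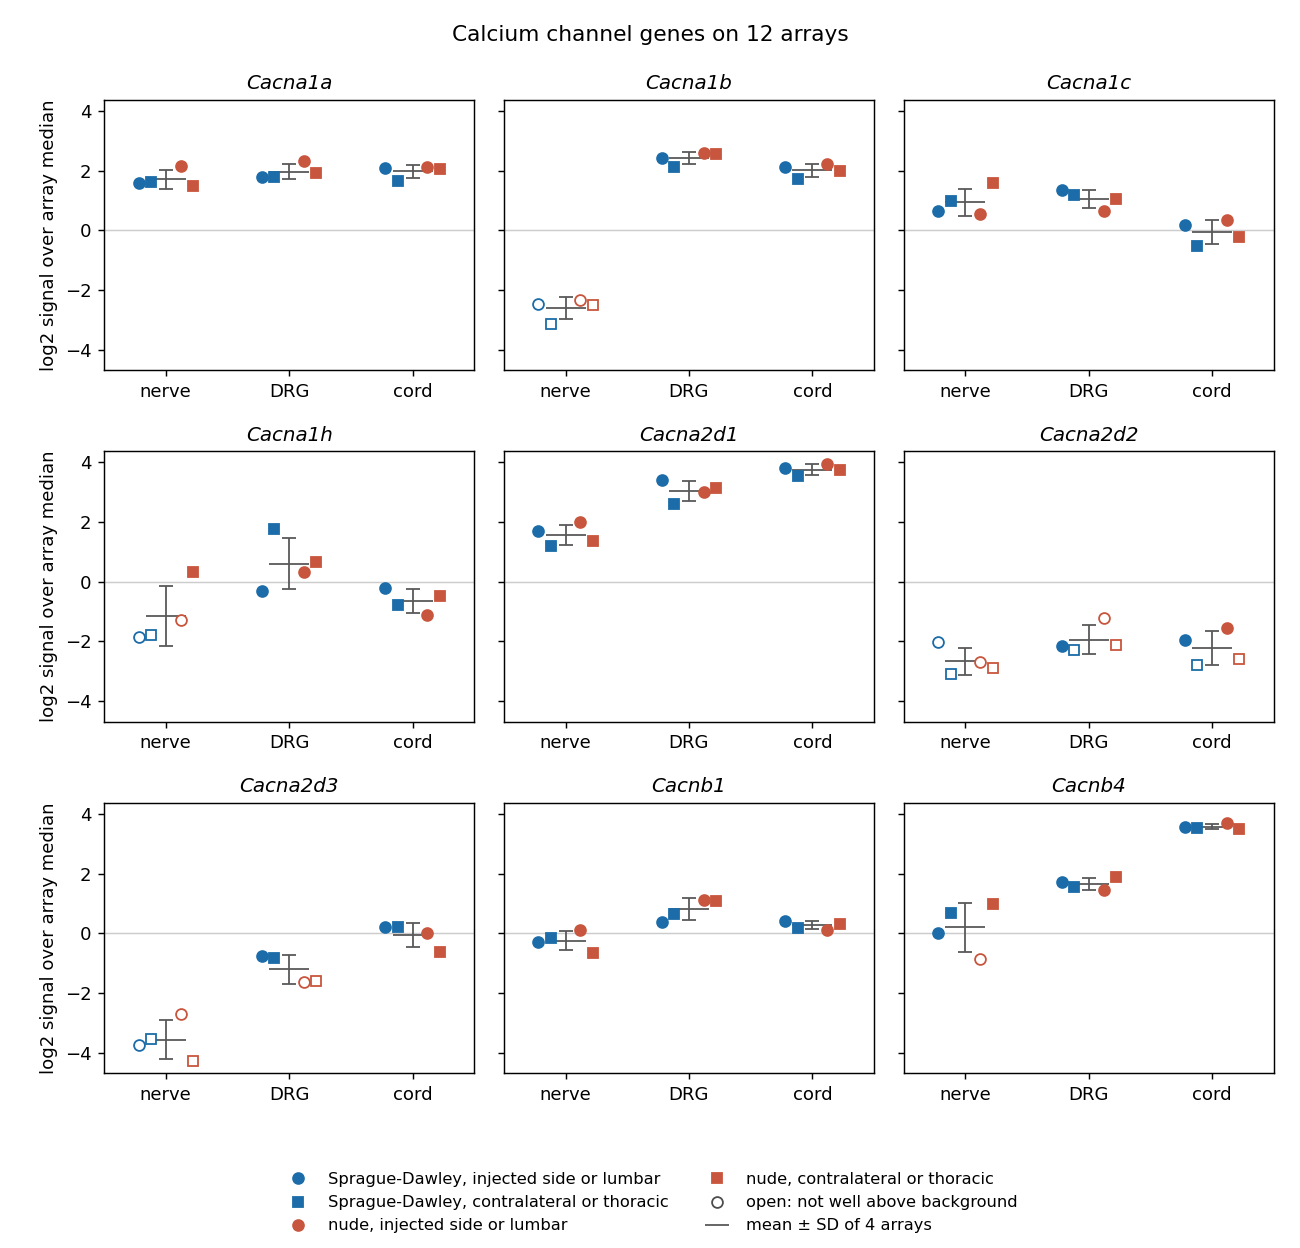
Levels of the 9 matched members on 12 arrays, each by its brightest probe, as log2 signal over the array median (y axis) in nerve, DRG and cord (x axis). Blue is Sprague-Dawley and red is nude, circles are the injected side or the lumbar cord, squares are the control, open symbols are not well above background, and bars give the mean and SD of 4 arrays; Cacna1b is open on all 4 nerve arrays and near 2 on all DRG and cord arrays, while Cacna1a lies between 1.48 and 2.33 everywhere.

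Among the pore-forming subunits, Cacna1b had the widest tissue difference of the members. In nerve its levels were -2.47 and -3.14 in the injected and contralateral nerve of Sprague-Dawley rats and -2.32 and -2.50 in those of nude rats, none of them well above background. In DRG they were 2.43 and 2.13 in Sprague-Dawley rats and 2.58 and 2.55 in nude rats. In cord they were 2.11 (lumbar) and 1.72 (thoracic) in Sprague-Dawley rats and 2.20 and 2.0 in nude rats. The 4 nerve arrays therefore lay below all 8 others. The N-type channel RNA was at least 14.9-fold higher in DRG than in nerve (adjusted p = 0.000171) and at least 11.2-fold higher in cord (adjusted p = 3.7e-05), and these bounds set the mean of the bright tissue against the dimmest signal well above background on the nerve arrays. Over the alternatives the log2 difference from nerve was as low as 1.82, in DRG and in cord. The bounds thus hold for the main setting and not for every setting. DRG and cord differed by 0.42 (95% interval 0.063 to 0.767, adjusted p = 0.051).

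Cacna1a differed least. Its mean levels were 1.70 ± 0.31 in nerve, 1.96 ± 0.25 in DRG and 1.97 ± 0.23 in cord (SD, n = 4 arrays), and it was well above background on all 12. DRG minus nerve was 0.26 (95% interval -0.082 to 0.597), cord minus nerve 0.27 (-0.066 to 0.613) and DRG minus cord -0.02 (-0.356 to 0.323), and none of the 3 passed the test. A second Cacna1a probe and a second Cacna1b probe were well above background on 0 of 12 arrays and give no level.

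Cacna1c, the L-type channel of smooth muscle and neurons, was lowest in cord. Its levels in cord were 0.19 (lumbar) and -0.53 (thoracic) in Sprague-Dawley rats and 0.33 and -0.24 in nude rats. In nerve they were 0.63 and 1.00 (injected and contralateral) in Sprague-Dawley rats and 0.56 and 1.57 in nude rats. In DRG they were 1.34 and 1.17 in Sprague-Dawley rats and 0.65 and 1.03 in nude rats. Every cord array lay below every nerve and DRG array, while nerve and DRG overlapped. Cacna1c was 2.16-fold higher in DRG than in cord (log2 difference 1.11 ± 0.21 SE, adjusted p = 0.0098) and 2.0-fold lower in cord than in nerve (log2 difference -1.0 ± 0.21 SE, adjusted p = 0.011). DRG and nerve differed by 0.11 (95% interval -0.429 to 0.649, adjusted p = 0.70). A dimmer probe gave 0.56 for DRG minus cord (adjusted p = 0.048) and -0.52 for cord minus nerve (adjusted p = 0.054). Of the smooth muscle genes, 4 of 4 tested were lower in cord than in nerve and 4 of 4 were lower in DRG than in nerve; their part in the Cacna1c levels was not tested.

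Cacna1h, the T-type channel of small sensory neurons, varied more within tissues than the other alpha1 genes. Its DRG levels were -0.31 on the injected side and 1.75 on the contralateral side of Sprague-Dawley rats, and 0.33 and 0.65 in nude rats. In cord they were -0.20 and -0.79 in Sprague-Dawley rats and -1.11 and -0.46 in nude rats. In nerve only the contralateral nude array, at 0.32, was well above background, and the others were at -1.84, -1.79 and -1.27. The mean DRG level was 1.75 above nerve (SE 0.43, adjusted p = 0.028), but the ranges overlapped, since the injected Sprague-Dawley DRG was below the contralateral nude nerve. The call was lost without the injected nude nerve (1.36, adjusted p = 0.12) and without the contralateral Sprague-Dawley DRG (1.24, adjusted p = 0.057). DRG minus cord was 1.25 (95% interval 0.134 to 2.36, adjusted p = 0.059) and cord minus nerve 0.51 (-0.606 to 1.62, adjusted p = 0.35).

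The alpha2delta subunits had their order in common, nerve below DRG below cord, for Cacna2d1 and Cacna2d3. Cacna2d1 was at 1.69 and 1.21 in the injected and contralateral nerve of Sprague-Dawley rats and at 1.99 and 1.36 in nude rats. In DRG it was at 3.42 and 2.59 in Sprague-Dawley rats and at 3.02 and 3.14 in nude rats. In cord it was at 3.81 and 3.53 in Sprague-Dawley rats and at 3.96 and 3.73 in nude rats. No array of one tissue reached into the range of another. Cacna2d1 was 2.78-fold higher in DRG than in nerve (adjusted p = 0.0016), 4.57-fold higher in cord than in nerve (adjusted p = 0.00016) and 1.64-fold lower in DRG than in cord (adjusted p = 0.0094). Without the contralateral Sprague-Dawley DRG the last of these was -0.51 on the log2 scale (adjusted p = 0.082).

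Cacna2d3 encodes the alpha2delta-3 subunit, which is linked to heat nociception in flies and mice. It was well above background on all 4 cord arrays, at 0.20 and 0.21 in Sprague-Dawley rats and -0.01 and -0.63 in nude rats. In DRG it was at -0.78 and -0.82 in Sprague-Dawley rats, both well above background, and at -1.65 and -1.59 in nude rats, neither of them so. In nerve it was between -4.28 and -2.72 and well above background on 0 of 4 arrays. Its RNA was at least 2.68-fold higher in cord than in nerve (adjusted p = 0.00028), at least 1.21-fold higher in DRG than in nerve (adjusted p = 0.0025) and lower in DRG than in cord, by 2.22-fold with 2 of 4 DRG arrays well above background (adjusted p = 0.015, and 0.080 without the contralateral nude nerve). Over the alternatives cord minus nerve was as low as 0.64 on the log2 scale. The 2.68-fold bound thus holds for the main setting and not for every setting. Cacna2d2 was well above background on 3 of 12 arrays, the 2 lumbar cords and the injected Sprague-Dawley DRG, at -1.93, -1.55 and -2.15. No fold is given for it, since only 1 DRG array and 0 nerve arrays were well above background. The test of DRG against nerve gave an adjusted p of 0.049, a call kept when the injected Sprague-Dawley nerve or the contralateral Sprague-Dawley DRG was left out and lost without any of the other 10 arrays (adjusted p from 0.062 to 0.35), and its levels ranged from -3.08 to -2.01 in nerve, from -2.27 to -1.22 in DRG and from -2.79 to -1.55 in cord.

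**Figure D2:**
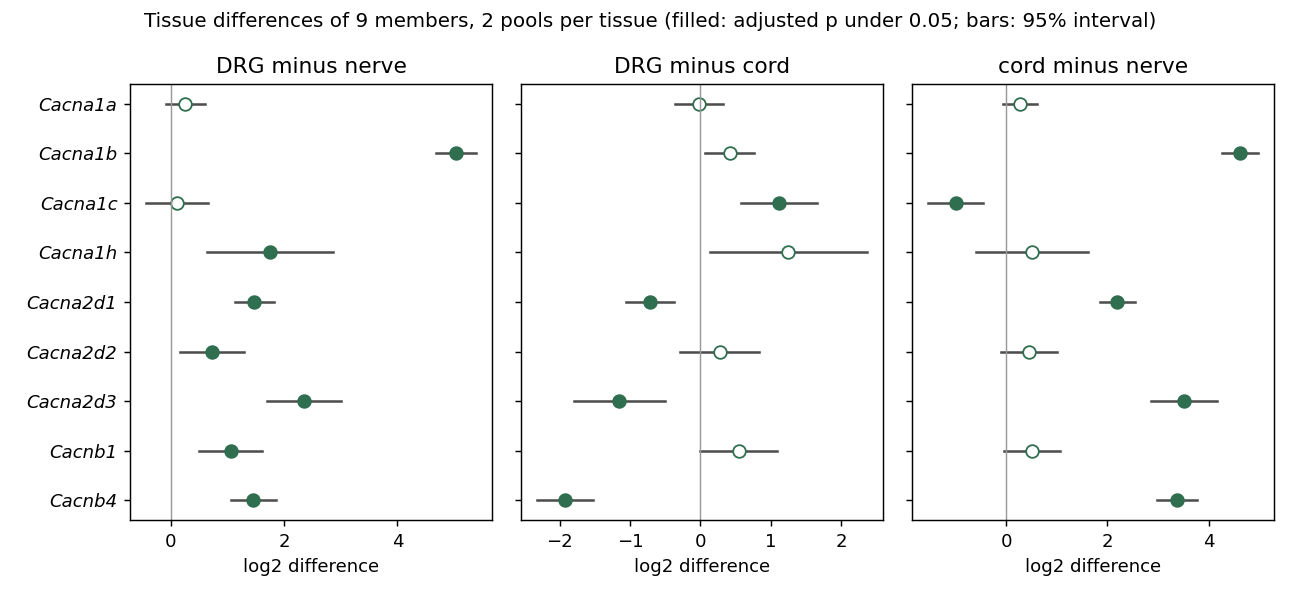
Log2 differences between tissues (x axis) for the 9 members (rows) in the 3 comparisons, from limma on 2 pools per tissue with the rat type as a block. Points are estimates, lines are 95% intervals and filled points have an adjusted p under 0.05. The largest differences from nerve are those of Cacna1b, 5.03 in DRG and 4.61 in cord, with 0 of 4 nerve arrays well above background. Cacna1c is the member on the lower side in cord against nerve.

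The beta subunits bind the alpha1 subunit inside the cell. Cacnb4, the beta subunit whose loss causes the lethargic phenotype in mice, was at 3.57 and 3.54 in the lumbar and thoracic cord of Sprague-Dawley rats and at 3.70 and 3.48 in nude rats. In DRG it was at 1.73 and 1.55 (injected and contralateral) in Sprague-Dawley rats and at 1.44 and 1.89 in nude rats. In nerve it was at 0.01 and 0.69 in Sprague-Dawley rats, and at -0.88, not well above background, and 0.98 in nude rats. The tissues did not overlap. Cacnb4 was 10.4-fold higher in cord than in nerve (adjusted p = 7.2e-05), 2.74-fold higher in DRG than in nerve (adjusted p = 0.0024) and 3.78-fold lower in DRG than in cord (adjusted p = 0.00082). Its dimmer probe gave the same order, with 0.83 ± 0.20 in cord, -0.75 ± 0.27 in DRG and no nerve array well above background (SD, n = 4 arrays), and all 3 differences passed the test. That probe entered the test through DRG and cord alone, so the filter largely set its direction against nerve.

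The 2 probes of Cacnb1 disagreed. The brighter probe was well above background on all 12 arrays, with mean levels of -0.25 ± 0.32 in nerve, 0.81 ± 0.36 in DRG and 0.26 ± 0.13 in cord (SD, n = 4 arrays). It was higher in DRG than in nerve by 1.06 (adjusted p = 0.015), with DRG minus cord at 0.54 (adjusted p = 0.082) and cord minus nerve at 0.51 (adjusted p = 0.088). The dimmer probe was well above background on 0 nerve arrays and on all 8 others, at 1.93 and 1.49 in Sprague-Dawley cord, 1.78 and 1.67 in nude cord, 0.31 and -0.71 in Sprague-Dawley DRG and -0.20 and -0.43 in nude DRG. By this probe Cacnb1 was, under the main setting, at least 9.16-fold higher in cord than in nerve (adjusted p = 3.7e-05) and 3.93-fold lower in DRG than in cord (adjusted p = 0.00052). The dimmer probe entered the test through DRG and cord alone, so the filter largely set its direction against nerve. Both probes carry the same accession, Cacnb1 transcripts are spliced differently in muscle and brain, and which transcripts each probe binds was not tested.

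**Figure D3:**
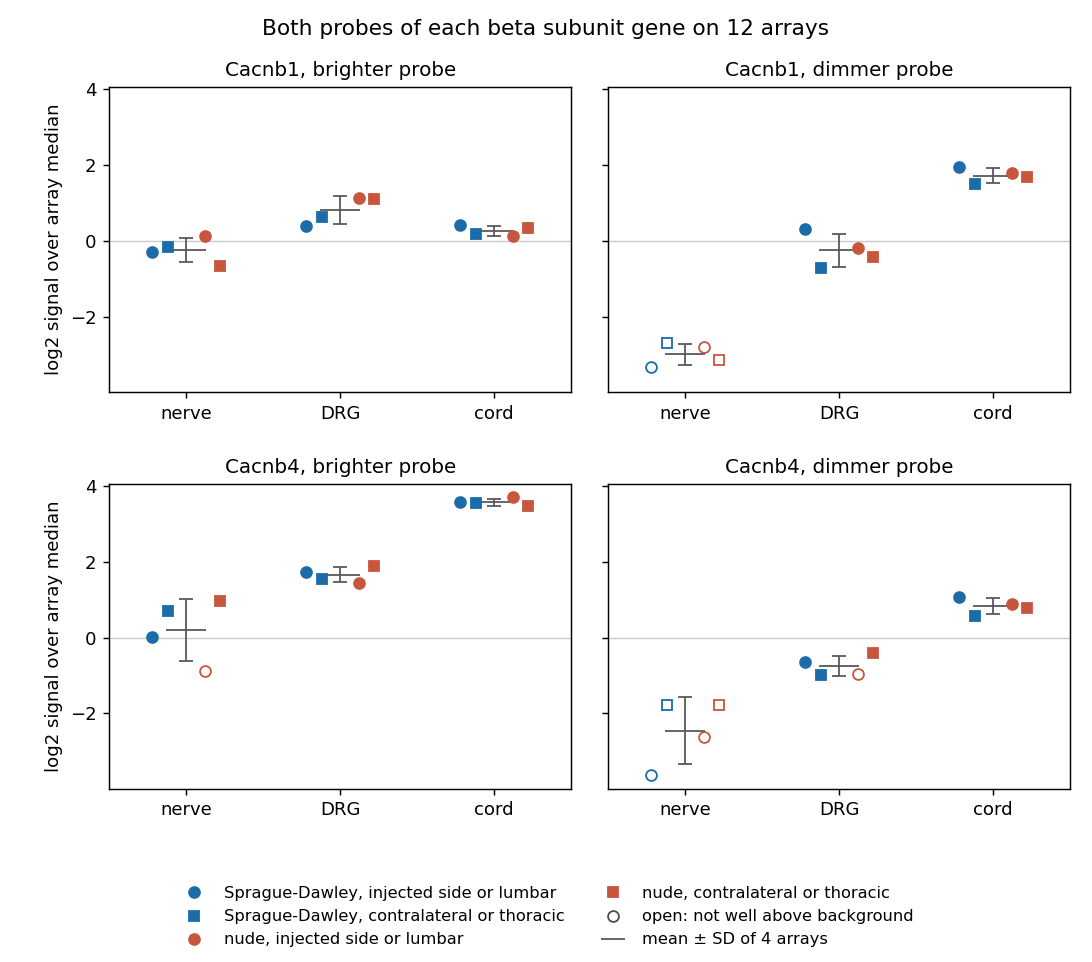
Levels of the brighter and the dimmer probe of Cacnb1 and Cacnb4 on 12 arrays as log2 signal over the array median (y axis) in nerve, DRG and cord (x axis), with symbols as in the plot of member levels and bars for the mean and SD of 4 arrays. Both Cacnb4 probes climb from nerve to cord, while the brighter Cacnb1 probe has its highest mean in DRG (0.81) and the dimmer one in cord (1.72).

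The pattern of a gene over the 12 arrays was compared by Pearson's r with those of 7949 genes detected on all of them, which was possible for 4 members. The arrays share tissue, pool and slide, so these values describe likeness alone. Cacna2d1 was most like Pcdh17 (r = 0.981), Ncam1 (r = 0.971) and Ola1 (r = 0.970), and Cacna1c most like Igflr1 (r = 0.968) and Sorcs1 (r = 0.959). Cacna1a was nearest to Lrrc36 (r = 0.936) and Cacnb1 to Plxna2 (r = 0.911).

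The comparison of sides asked what the peptide injection changed in the members. With 1 array per condition there is no replicate and no test, and a member was called where the sides differed at least 2-fold. Members called in nerve were 0 of 5 in Sprague-Dawley rats, where 8.76% of all genes measured were called in either direction, and 2 of 6, both lower, in nude rats (21.1%). In DRG 1 of 8 was called in Sprague-Dawley rats, lower on the injected side (1.01%), and 0 of 7 in nude rats (1.07%). In cord none of 9 was called in Sprague-Dawley rats (1.74%) or in nude rats (1.37%). No member was called the same way in Sprague-Dawley and nude rats, 0 of 5 in nerve (4.87% of all genes), 0 of 7 in DRG (0.147%) and 0 of 9 in cord (0.406%).

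The Sprague-Dawley DRG call was Cacna1h. It was at -0.31 on the injected side and 1.75 on the contralateral side, 4.16-fold lower, and both arrays were well above background. In nude rats the same comparison gave 0.33 and 0.65, a log2 ratio of -0.33. The contralateral Sprague-Dawley array was the highest of all 12 for this gene. Of the axon injury genes, 2 of 9 were at least 2-fold higher in the injected DRG of Sprague-Dawley rats and 2 of 8 in that of nude rats, and none was lower; their part was not tested. With normexp background correction the log2 ratio was -0.95, under 2-fold.

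The 2 nude nerve calls were Cacnb4, at least 3.02-fold lower in the injected nerve, where it was not well above background, and Cacna1c, 2.01-fold lower. Cacna1c was under 2-fold with the 75th percentile, quantile normalization, cyclic loess, the authors' values or normexp, with log2 ratios from -0.71 to -0.91, and Cacnb4 was at -0.74 with normexp. In Sprague-Dawley nerves the log2 ratios had the same sign, -0.68 for Cacnb4 and -0.37 for Cacna1c. The median log2 ratio over all genes was -0.38 in nude and -0.05 in Sprague-Dawley nerves. With normexp it was -0.87 in nude nerves, where 28 of 9331 genes were called higher and 4071 lower. Normexp ratios in nude nerves, here and below, carry that shift. The nude injected nerve was the dimmest array, with a median spot signal of 23.5 against 83.9 for its control. Schwann cell genes were at least 2-fold lower in the injected nerve for 5 of 7 in nude and 3 of 7 in Sprague-Dawley rats, adipocyte genes for 4 of 4 and 5 of 5, and skeletal muscle genes were lower for 5 of 7 in nude rats but higher for 5 of 9 in Sprague-Dawley rats. Their part in the member ratios was not tested.

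Cacna2d1 had positive log2 ratios in both injected nerves, 0.48 in Sprague-Dawley and 0.63 in nude rats, the latter -0.091 with normexp. In DRG it was 1.78-fold higher on the injected side of Sprague-Dawley rats (3.42 against 2.59, log2 ratio 0.83), and the log2 ratio was -0.12 in nude rats. With normexp the Sprague-Dawley DRG ratio was 1.00, and under every other setting tried it was under 2-fold.

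In cord 8 of 9 log2 ratios of lumbar over thoracic were above 0 in Sprague-Dawley rats and 7 of 9 in nude rats. Both counts include Cacna2d2, which entered through the lumbar arrays alone, so the filter and floor largely set its sign. The median was 0.39 in Sprague-Dawley rats, where all genes had -0.07, and 0.22 in nude rats, where all genes had -0.07. Cacna1c had 0.71 and 0.57 (Sprague-Dawley and nude), Cacna1b 0.39 and 0.21, Cacna2d1 0.28 and 0.23, and Cacna2d2, detected in the lumbar arrays alone, was at least 1.59-fold and 1.31-fold higher there. For Cacna2d2 the log2 ratios fell to 0.26 and 0.17 under other settings, so these bounds do not hold for every setting. Cacna1h went opposite ways, 0.59 and -0.64. Schwann cell genes were at least 2-fold higher in lumbar than in thoracic cord for 6 of 7 in both rat types, with median log2 ratios of 2.58 and 2.14, dorsal horn neuron genes had medians of 0.63 and 0.25 with 0 of 10 called in either rat type, and general neuronal genes had 0.05 and -0.12. The part of these cells in the member ratios was not tested, and the 2 cord segments were never compared in uninjected rats here.

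**Figure D4:**
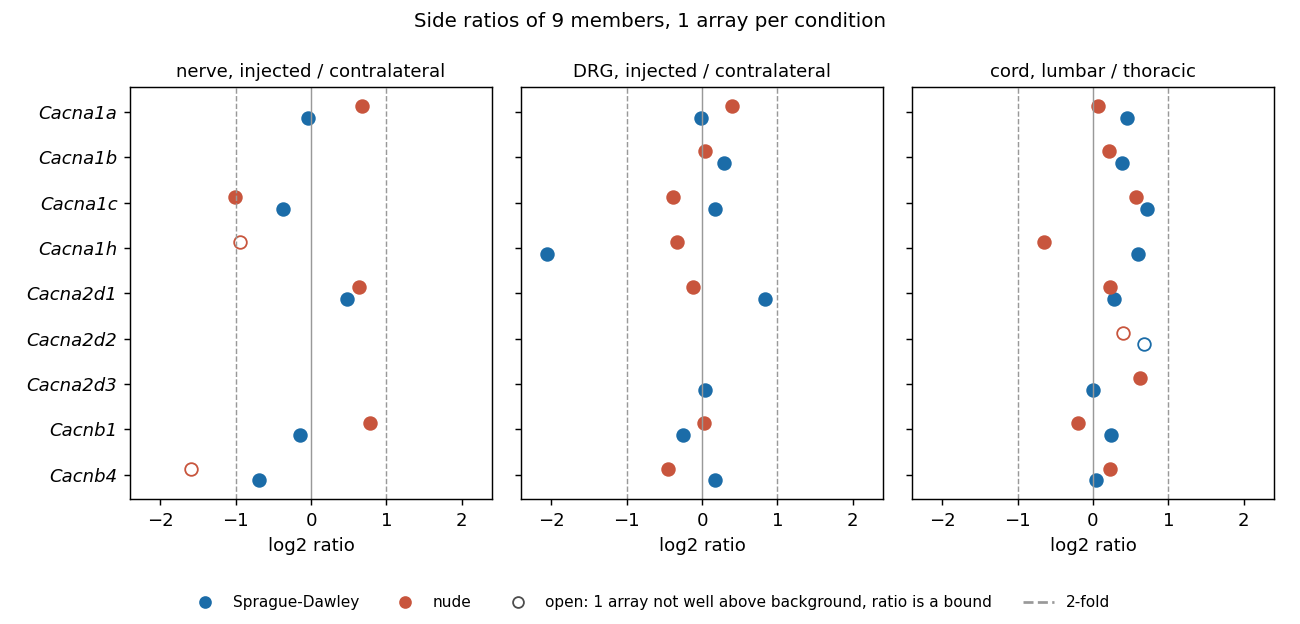
Log2 ratios between sides (x axis) for the 9 members (rows) in nerve, DRG and cord, blue for Sprague-Dawley and red for nude rats, with 1 array per condition. Open points are bounds because 1 of the arrays was not well above background, and dashed lines mark 2-fold; 3 points lie past them, Cacna1h in Sprague-Dawley DRG and Cacna1c and Cacnb4 in nude nerve, and most cord points lie to the right of 0.

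Of 16 other genes of the calcium channel family on the array, 11 could be tested between tissues. In DRG 3 were higher than in nerve (Cacna1e, Cacna1g and Cacng2; 14.0% of all probes) and Cacna1i was lower (29.0%), and against cord 2 were higher in DRG (Cacna1s and Cacnb3; 27.5%) and 5 lower (29.2%). In cord 6 were higher than in nerve (27.0%) and 3 lower (36.9%). Cacna1e, Cacna1g and Cacng3 gave no side ratio in the nerves of either rat type, so the filter may have set part of their direction against nerve. Of the DRG against nerve calls, that of Cacna1e was lost without the contralateral nude nerve, the contralateral nude DRG or the contralateral Sprague-Dawley nerve (adjusted p from 0.053 to 0.38), that of Cacna1g without the contralateral nude DRG (adjusted p = 0.060) and that of Cacna1i without the injected nude nerve (adjusted p = 0.15). Cacng2 (stargazin), which carries AMPA receptors to the synapse, was 14.3-fold lower in DRG than in cord (adjusted p = 0.00022), with levels of 4.69 to 5.38 on the 4 cord arrays and 0.47 to 1.62 on the 4 DRG arrays. Cacnb3, the remaining beta subunit gene measured, had another order than Cacnb4: it was 3.34-fold higher in DRG than in cord (adjusted p = 0.0018) and 2.25-fold lower in cord than in nerve (adjusted p = 0.0039).

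Between sides Cacnb3 was at least 2-fold lower in the injected nerve of both rat types, and no other gene of the family was called alike in both. Of all genes, 4.87% were called the same way in both nerves. In Sprague-Dawley nerve 1 of 7 of these other family genes was higher and 2 lower (8.76% of all genes either way). In nude nerve 1 of 3 was higher and 1 lower (21.1%). In DRG 0 of 10 were called in Sprague-Dawley rats (1.01%) and 1 of 5, higher, in nude rats (1.07%). In cord none was called. Cacnb3 was at 4.28 in the injected and 5.38 in the contralateral nerve of Sprague-Dawley rats, 2.15-fold lower, and at 4.31 and 5.48 in nude rats, 2.26-fold lower. It stayed lower under all 9 other settings and reached 2-fold in 5 of them in each rat type. The log2 ratios ran from -1.10 to -0.96 in Sprague-Dawley and from -2.10 to -0.78 in nude rats. The -2.10 came with normexp, under which the median over all genes in nude nerve was -0.87. Cacna1s, the L-type pore of skeletal muscle, was at least 3.33-fold higher in the injected Sprague-Dawley nerve and at least 2.01-fold higher in the injected nude DRG, with log2 ratios of 0.51 and 0.16 with normexp. Skeletal muscle genes were at least 2-fold higher in the same comparisons, 5 of 9 and 6 of 8, and 4 of 8 were so in the nude lumbar cord; the part of muscle RNA was not tested. Cacng1, the muscle gamma subunit, was 3.09-fold higher over the array median in the injected nude nerve, where skeletal muscle genes were lower. Its signals there were alike, 20.1 in the injected and 20.7 in the contralateral nerve. The medians over all spots were 23.5 and 83.9, and levels use the median over probes instead. With normexp the log2 ratio was 0.55. Cacng2 was at least 2.01-fold lower in the injected Sprague-Dawley nerve, with -0.22 on the log2 scale with normexp.

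Of the ligands, regulators and release-site partners of the channels, 16 of 19 were on the array and 15 were tested. In cord 8 were higher than in nerve (27.0% of all probes) and 5 lower (36.9%), and in DRG 6 were higher than in nerve (14.0%) and 2 lower (29.0%). Of the genes tested, those of the release machinery beside N- and P/Q-type channels (Snap25, Stx1a, Syt1, Rimbp2, Rims1 and Rims2) were higher in cord than in nerve. The SNARE genes Snap25 and Stx1a were 266-fold (adjusted p = 0.00013) and 12.1-fold higher, each with 3 of 4 nerve arrays well above background. The Snap25 fold was 167 without the injected Sprague-Dawley nerve and 424 without the contralateral one, and with normexp the log2 differences were 6.21 for Snap25 and 2.66 for Stx1a in place of 8.06 and 3.60. The calcium sensor Syt1, the linker Rimbp2 and the scaffolds Rims1 and Rims2, none of them well above background in nerve, were at least 4.54-fold, 9.38-fold, 2.83-fold and 4.89-fold higher. Over the alternatives their log2 differences fell as low as 1.07, 1.56, 0.53 and 0.83. These bounds thus hold for the main setting and not for every setting. The same genes entered the test through DRG and cord alone, so the filter largely set their direction. Snap25, Stx1a, Syt1 and Rimbp2 were higher in DRG than in nerve as well. Rims1, well above background on 1 DRG array, had an adjusted p of 0.018 there, lost without the contralateral nude nerve (0.19), the contralateral nude DRG (0.18) or the injected Sprague-Dawley nerve (0.053), and Rims2 did not pass by its brightest probe (adjusted p = 0.12). The thrombospondins, of which Thbs1 and Thbs2 were measured and which bind alpha2delta-1, were lower in cord than in nerve, Thbs2 by 16.4-fold and Thbs1, not well above background in cord, by at least 2.66-fold. Rem1, a small G protein that restrains the channels, was at least 2.99-fold lower in cord. Over the alternatives the smallest cord minus nerve differences were -0.62 for Thbs1 and -0.61 for Rem1 on the log2 scale. Their bounds against cord thus hold for the main setting and not for every setting. Thbs1 and Rem1 entered through nerve and DRG alone, so the filter largely set their direction against cord. Between sides Thbs1 was at least 2.25-fold higher in the injected Sprague-Dawley nerve and at least 5.78-fold higher in the injected nude nerve, detected in both injected nerves and in neither control. With normexp these log2 ratios were 0.27 and 0.62, under 2-fold, so the bounds hold for the main setting and not for every setting. The nude Thbs1 signals were 22.8 in the injected and 12.6 in the contralateral nerve, so part of that fold rests on the scaling of the dim injected array. Snap25 was 6.44-fold lower in the injected Sprague-Dawley nerve, with a log2 ratio of -0.99 with normexp. In the injected nude nerve Stx1a was at least 2.59-fold lower (-0.55 on the log2 scale with normexp) and Calm3, a calmodulin gene, 2.23-fold lower. In the Sprague-Dawley lumbar cord Syt1 was 2.23-fold higher and Thbs2 2.27-fold lower than in the thoracic cord, with log2 ratios of 0.67 and -0.65 with normexp. No other partner was called between sides. Of the partners measured in Sprague-Dawley nerve, 1 of 11 was higher and 1 lower (8.76% of all genes either way). In nude nerve 1 of 9 was higher and 2 lower (21.1%), and in Sprague-Dawley cord 1 of 13 was higher and 1 lower (1.74%). Of all genes, 4.87% were called the same way in both nerves, as Thbs1 was.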

How the data were processed

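The arrays were Agilent SurePrint G3 Rat GE 8x60K, hybridized with Cy3-labelled total RNA. The deposited intensity values are the processed spot signals of the authors' scans, background-subtracted by Feature Extraction (10.5 in the submitters' processing notes, 10.7.3.1 in the file headers) and not normalized between arrays; the deposited flags have a value of 0 or 1 per spot. The deposited log2 values of the authors' table (30507 probes, 30367 matched) come from GeneSpring GX, and once sorted their columns are alike to within 0.00153, as quantile normalization makes them. The number of arrays limits the precision, with 1 per condition. With the rat type as a block, p-values measure how far the tissue differences disagree between the 2 pools. The pools also differ in strain and day.

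Control spots and outlier spots were left out, log2 signals of a probe's spots were averaged, and each array's median over probes was subtracted. Probes were named by matching RefSeq accessions to the GRCr8 annotation, newer than the rn4 design, and a gene was taken by its brightest probe. Members, gene lists and tests were chosen with earlier results of these data known. Every member was named, and other family genes and partners where well above background on at least 1 array; 19 partners and 16 other family genes were listed. Genes most alike by Pearson correlation were named too, and one such result is not reported here. Marker lists were neurons, sensory neurons, dorsal horn neurons, Schwann cells, oligodendrocytes, astrocytes, macrophages, skeletal muscle, adipocytes, smooth muscle and axon injury.

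Tissues were compared with limma 3.58.1 (R 4.3.3) on the mean of the 2 arrays of each tissue and rat type, with the rat type as a block, over 22131 probes well above background on at least 2 arrays, with Benjamini-Hochberg adjustment. The tissues of a rat type were paired through their animals, so the block is part of the design. Sides were compared by log2 ratio, with signals raised to the lowest well above background on the array, over genes detected on at least 1 of the 2 arrays. Tested on simulated data over 22131 probes for DRG minus nerve, the method recovered 0 of 100 probes changed by 1 on the log2 scale and 30 of 100 changed by 2, with 0 other probes called. Only these probes were changed there, while in the data 3093 probes were called higher and 6424 lower. The adjustment was therefore stricter in the simulation, and its recovery does not give that of the data. Alternatives were scaling to the 75th percentile, cyclic loess, quantile normalization, the authors' values, normexp (offset 50, on median spot signals), other filters and probe rules, arrays as samples, the slide as a block or taken singly, 1 side only, the methods' t-test, leaving out each array, and 1.5-fold for sides. All nude arrays and the Sprague-Dawley nerve arrays shared slide 1, and the Sprague-Dawley DRG and cord arrays lay on slide 2. For DRG and cord the rat type cannot be told apart from the slide. In Sprague-Dawley rats the differences of DRG and cord from nerve are also differences between slides. Python 3.11.15 with numpy 2.4.6, pandas 2.3.3 and matplotlib 3.10.9 was used.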

Additional observations from a re-analysis of the deposited data

Results flagged for a closer look

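In 10 cases both arrays of both rat types were well above background and the side ratios of a member went opposite ways in Sprague-Dawley and nude rats. With 1 array per condition these differences were not tested, and the rat types also differ in strain and day. The widest gap was that of Cacna1h in cord, where the log2 ratio of lumbar over thoracic was 0.59 in Sprague-Dawley and -0.64 in nude rats, a difference of 1.24. In DRG the differences (Sprague-Dawley minus nude) were 0.949 for Cacna2d1, 0.624 for Cacnb4, 0.55 for Cacna1c, -0.417 for Cacna1a and -0.285 for Cacnb1. In nerve they were -0.92 for Cacnb1 and -0.706 for Cacna1a, and in cord -0.627 for Cacna2d3 and 0.436 for Cacnb1. In several of these 1 of the ratios was close to 0, as for Cacna2d3 in Sprague-Dawley cord (-0.0032) and Cacna1a in Sprague-Dawley DRG (-0.018).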

How the results depend on the processing

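Of the member differences between tissues under all alternatives, 700 kept their side of the threshold, 54 lost the call, 34 gained one and 1 call reversed. Among the 700, 17 changed sign without passing the threshold in either fit, 9 of them Cacna1a in DRG minus cord. The reversal was Cacnb1 in DRG minus cord, at -0.72 (adjusted p = 0.012) with the mean over both probes, which disagree. Members called for DRG against nerve (7 of 9) were 4 with normexp, with the injected-side and lumbar arrays alone and with the methods' t-test unadjusted, and 0 with that t-test after Benjamini-Hochberg. The counts over all probes under these settings are given above. For DRG against cord (4 of 9) the counts were 7 with the 75th percentile, 1 with the injected-side and lumbar arrays alone, 2 on the 8 arrays of the slide that holds all tissues and 1 with the adjusted t-test. In that order, 7712, 4086, 4041 and 1122 of all 22131 probes were higher and 5223, 4524, 3873 and 2000 lower. Leaving out each array in turn gave 5 to 7 members for DRG against nerve, 4 to 6 for DRG against cord and 5 to 6 for cord against nerve. Cacna1b in DRG minus cord passed the threshold when the nude lumbar cord, the Sprague-Dawley lumbar cord or the contralateral Sprague-Dawley DRG was left out, and Cacna1h there without the contralateral nude nerve, the injected nude DRG or the Sprague-Dawley lumbar cord. Members at least 2-fold between sides in nude nerve (2 of 6) were 1 with quantile normalization, with the authors' values and where both arrays had to be well above background, 0 with normexp and 4 with no filter and no floor. All genes there gave 817 higher and 641 lower of 9519 with quantile normalization and 817 and 642 of 9520 with the authors' values. They gave 673 and 1110 of 8663 with both arrays well above background, 28 and 4071 of 9331 with normexp and 4085 and 1655 of 15159 without filter and floor. Without filter and floor 1 was called in Sprague-Dawley nerve (831 higher and 742 lower of all 15159 genes) and 1 in nude cord (344 and 259). At 1.5-fold the counts were 1 in Sprague-Dawley nerve, 2 in Sprague-Dawley DRG, 3 in Sprague-Dawley cord, 6 in nude nerve (3 higher and 3 lower) and 2 in nude cord. At that fold all genes gave 1107 higher and 1316 lower of 10213 in Sprague-Dawley nerve and 340 and 359 of 10831 in Sprague-Dawley DRG. They gave 486 and 615 of 11065 in Sprague-Dawley cord, 1323 and 3392 of 9456 in nude nerve and 303 and 417 of 10689 in nude cord. The count in both rat types was 0 under every setting. The causes were not tested. Low signals limit Cacna2d2, Cacna2d3 outside cord, Cacna1h in nerve and the dim nude injected nerve.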
